A study of Homo sapiens with 12 samples.

Results

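The 50 genes described here act in the mitotic spindle, the kinetochore and cytokinesis, and were chosen by name for those roles from 19775 genes that have a probe set of their own on the array. Each gene was read through the brightest of its probe sets, by the mean over all 12 arrays, and all 50 passed the filter on dim values. The cells were H929, a human myeloma cell line, treated for 24 hours with both compounds together (the combination), with 250 nM CHR-3996 alone, with 1 µM tosedostat alone (named CHR2797 in the labels), or left untreated, with 3 arrays in each group. CHR-3996 inhibits histone deacetylases, the enzymes that remove acetyl groups from histones, and tosedostat inhibits aminopeptidases, which release amino acids from the ends of peptides. Affymetrix U133 Plus 2.0 arrays were used, and the values are on the log2 scale, so that a difference of 1 is a 2-fold change. The samples are labelled as biological replicates of 1 cell line at 1 dose and 1 time, and nothing more states whether they came from separate cultures, so the p-values measure the spread between these samples. It is also not stated whether untreated cells received a vehicle.

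During mitosis, spindle microtubules attach to kinetochores, protein assemblies built on the centromere of each chromosome. The spindle checkpoint delays anaphase until all kinetochores are attached, after which the anaphase promoting complex marks securin for destruction and separase opens the cohesin rings that hold sister chromatids together. A contractile ring then divides the cell, positioned by the central spindle. The transcripts of many of these genes are low in resting cells and rise in late S and G2 phase, through promoters that often carry a cell cycle genes homology region (CHR) bound by MuvB complexes and a CCAAT box bound by NF-Y. RNA from a whole culture was measured, so fewer cells in the dividing phases and less RNA of these genes in each cell cannot be told apart.

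Promoter windows from 250 bases before to 50 bases after the transcription start were found for 40 of the 50 genes in the RefSeq table used here (GRCh38.p14), with several windows for 8 of them. On either strand, the CHR core TTTGAA was present in a window of 28 of the 40 genes (70%), against 18.2% of the 27303 genes of the table. The CCAAT box, searched as CCAAT, was present in 33 of 40 (82.5%), against 39.7% of all genes, and both motifs in 22 of 40 (55%), against 7.26%. An E2F site, searched as TTTGGCGC or TTTCGCGC, was present in 3 of 40 (7.5%), against 1.4%. No motif contains another, although their ends can overlap. The CHR core was found in 24 of the 32 genes that were lower with CHR-3996 and in 4 of the 8 that were not called, and the CCAAT box in 25 of the 32 and in all 8. The windows of 4 genes are shown because each gene had the largest fall with CHR-3996 among the genes of its role that have a window in the table. Capitals mark the motif matches on either strand, so a motif of the opposite strand appears as its reverse complement. The windows lie at chr2:168890381-168890680 on the minus strand for SPC25 of the kinetochore, chr17:8210176-8210475 on the minus strand for the kinase AURKB, chr3:44761544-44761843 on the plus strand for the motor KIF15 and chr4:127880643-127880942 on the plus strand for the kinase PLK4.
SPC25: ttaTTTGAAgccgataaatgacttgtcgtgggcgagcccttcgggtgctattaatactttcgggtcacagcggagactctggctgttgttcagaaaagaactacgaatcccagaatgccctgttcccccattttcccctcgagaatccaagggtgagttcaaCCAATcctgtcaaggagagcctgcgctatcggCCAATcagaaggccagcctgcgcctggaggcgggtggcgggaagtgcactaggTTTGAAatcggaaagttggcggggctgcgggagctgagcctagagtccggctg
AURKB: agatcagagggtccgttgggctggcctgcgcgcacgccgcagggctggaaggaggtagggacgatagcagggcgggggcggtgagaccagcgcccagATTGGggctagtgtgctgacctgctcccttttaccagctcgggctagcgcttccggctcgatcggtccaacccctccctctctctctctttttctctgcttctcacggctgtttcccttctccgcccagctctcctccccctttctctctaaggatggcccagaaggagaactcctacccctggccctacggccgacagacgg
KIF15: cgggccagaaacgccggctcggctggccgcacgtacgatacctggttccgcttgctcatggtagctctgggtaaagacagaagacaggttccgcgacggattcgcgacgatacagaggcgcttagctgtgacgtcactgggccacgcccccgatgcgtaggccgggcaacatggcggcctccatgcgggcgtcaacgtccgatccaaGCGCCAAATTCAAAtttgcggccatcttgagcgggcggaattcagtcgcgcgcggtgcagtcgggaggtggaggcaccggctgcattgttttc
PLK4: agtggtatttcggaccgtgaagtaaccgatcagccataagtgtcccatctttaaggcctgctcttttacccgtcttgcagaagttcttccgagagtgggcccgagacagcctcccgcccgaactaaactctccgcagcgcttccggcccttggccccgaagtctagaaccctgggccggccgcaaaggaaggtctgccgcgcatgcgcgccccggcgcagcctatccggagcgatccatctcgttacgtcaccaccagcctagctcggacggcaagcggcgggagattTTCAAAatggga
SPC25 carried 2 CHR cores and 2 CCAAT boxes, and one of its CHR cores began 3 bases before the start. In KIF15 an E2F site and a CHR core directly followed one another, beginning 43 and 35 bases before the start. The AURKB window shown held a CCAAT box and no CHR core, which says only that these letters are not in this window. PLK4 had its CHR core 39 bases after the start. With a site in overlapping windows counted once, there were 38 CHR matches in the windows of all these genes. Of them, 28 began between 60 bases before and 50 bases after the start, as the plot of CHR positions shows. The start is that of the window holding the site, or the nearest where several windows hold it. Positions were not counted in the windows of other genes. These matches are letters in a reference sequence, and binding of any factor was not measured.

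**Figure D1:**
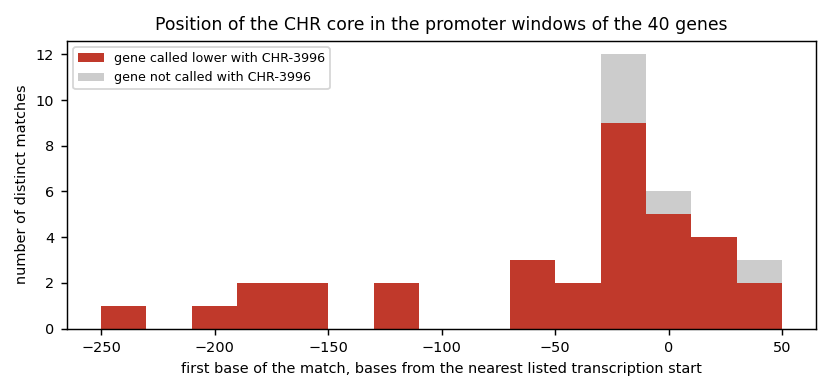
Number of CHR core matches (TTTGAA on either strand) in the promoter windows of the 40 genes with a window, in bins of 20 bases. The horizontal axis is the distance in bases of the first base of the match from the transcription start of its window. Where several windows hold a match, the nearest of their starts was used. Colours show whether the gene was called lower with CHR-3996. Each site is counted once, and 28 of the 38 lie between 60 bases before and 50 bases after the start. Positions in the windows of other genes were not counted.

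Correlations between replicate arrays ran from 0.978 to 0.983 (Pearson r, 36395 tested probe sets). All 8 plasma cell markers lay above the 40th percentile on every array, while CD3D, CD3G, CD14, COL1A2 and COL3A1, which mark T cells, myeloid cells and fibroblasts, lay above it on no array and the other 11 listed markers of other cell types, such as KRT18, lay above it on some or all. Of the plasma cell markers, SDC1 averaged 10.05 with the combination, 10.21 with CHR-3996, 12.03 with tosedostat and 12.03 in untreated cells, TNFRSF17 averaged 11.87, 11.77, 13.54 and 13.50 in the same order, and MZB1 averaged 11.65, 11.60, 12.65 and 12.56. CD38 went the other way, at 9.69, 9.11, 9.37 and 8.89, and the group means of IRF4, PRDM1, XBP1 and JCHAIN each lay within a narrower range. Without further scaling the median log2 fold change of all probe sets tested was 0.11 with CHR-3996 and 0.14 with the combination, and setting all array medians equal moved these to -0.11 and -0.10. One of 2 controls for RNA quality moved with CHR-3996: the 3′ probe set of ACTB exceeded the 5′ probe set by 1.08 to 1.38 on the combination arrays, 1.43 to 1.76 on the CHR-3996 arrays, 1.97 to 2.19 on the tosedostat arrays and 1.98 to 2.32 on the untreated arrays, in log2 units. The same difference for GAPDH was 0.27 to 0.45 on the combination arrays, 0.39 to 0.51 on the CHR-3996 arrays, 0.37 to 0.52 on the tosedostat arrays and 0.38 to 0.49 on the untreated arrays. The part of RNA quality in the results below was not tested.

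The question for the first comparison was which of the 50 genes changed with CHR-3996 alone. Of the 50 genes, 41 were lower with CHR-3996 than in untreated cells, none was higher and 9 were not called, at an adjusted p under 0.05 from limma. Over all probe sets tested, 15.7% were called lower and 29.4% higher (45.1% in either direction). The median log2 fold change of the 50 genes was -1.26, with a range of -3.34 to 0.26, against a median of 0.11 for all probe sets tested. The fall was at least 2-fold for 33 of the genes called lower and at least 4-fold for 9 of them. In 45 of the 50 genes all 3 CHR-3996 arrays lay below all 3 untreated arrays, as was so for 19.6% of all probe sets. After setting array medians equal 45 genes were lower, and after quantile normalization 43 were. All roles contained genes that fell, from the surveillance of attachment to the division of the cell. All 7 genes listed as kinesins and all 4 listed under cytokinesis were among them. Over the 50 genes, the untreated level and the log2 fold change, which share the untreated arrays, had a Pearson r of -0.046.

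With the combination, 35 genes were lower than in untreated cells, 1 was higher and 14 were not called. Over all probe sets, 14.1% were called lower and 32% higher (46.1% in either direction). The median log2 fold change of the 50 genes was -0.92, with a range of -3.11 to 0.71, and 22 of the genes called lower fell at least 2-fold. In 42 genes the combination arrays all lay below the untreated arrays, against 18.4% of all probe sets. Leaving out the first combination array reduced the genes called lower to 25, with ASPM, BUB1B, CDC25B, CENPA, ESPL1, KIF11, KIF18A, NDC80, PRC1 and RACGAP1 no longer called. The calls of ASPM, CDC25B, CENPA, KIF11, KIF18A and RACGAP1 were also lost on leaving out certain single untreated arrays.

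No gene was called with tosedostat alone, although 49 of the 50 log2 fold changes were below 0, with a median of -0.44 and a range of -0.81 to 0.17. Of all probe sets, 45% were below 0. Over all probe sets 0.451% were called lower and 3.23% higher (3.68% in either direction). By limma, 11 of the 50 genes had an unadjusted p under 0.05, against 5896 of the 36395 probe sets tested, in either direction. The smallest adjusted p of the 50 genes was 0.104, for KIF23. These p-values use 1 estimate of the spread per gene, taken over all 4 groups, and the spread differed between groups. Between arrays, the median difference of the 50 genes from their untreated means had an SD of 0.54 for CHR-3996 and 0.39 for the combination. For tosedostat it was 0.17 and for untreated cells 0.04. With only the tosedostat and untreated arrays fitted, 3 genes were lower, against 0.247% of all probe sets. In 37 genes the 3 tosedostat arrays lay below the 3 untreated arrays, against 8.47% of all probe sets. Deviations of the tosedostat and untreated arrays with the same replicate number correlated at 0.13 to 0.29, and with that number as a block in the model KIF23 (adjusted p = 0.038) and ECT2 (adjusted p = 0.030) were lower, or 2 of 50 genes against 1.02% of all probe sets. When the block was fitted on the tosedostat and untreated arrays alone, no probe set was called.

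**Figure D2:**
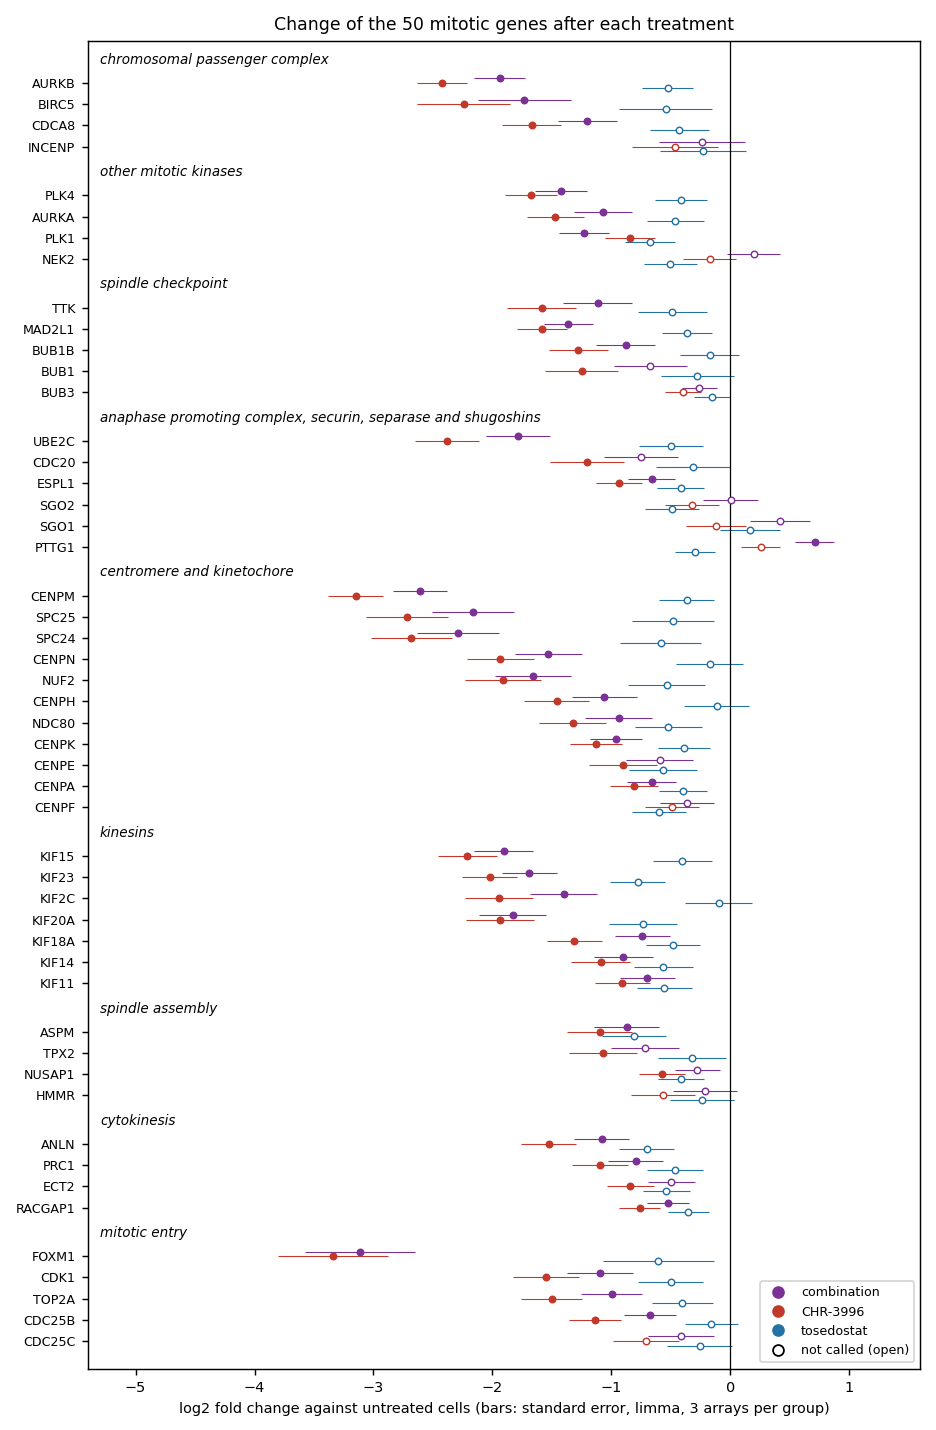
Log2 fold change against untreated cells (horizontal axis) of the 50 genes, grouped by role, for the combination, CHR-3996 and tosedostat, with bars for the standard error from limma over 3 arrays per group and open circles for genes not called. Most CHR-3996 and combination values lie left of 0, with FOXM1 at -3.34 and -3.11, tosedostat values lie closer to 0, and PTTG1 is the gene called higher with the combination, at 0.71.

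Among the 4 subunits of the chromosomal passenger complex, which corrects faulty attachments and guides cytokinesis, the kinase and survivin fell most. AURKB, the Aurora B kinase, had log2 values of 6.20, 6.65 and 7.03 on the combination arrays, 5.85, 6.18 and 6.39 on the CHR-3996 arrays, 7.96, 7.85 and 8.30 on the tosedostat arrays and 8.47, 8.54 and 8.68 on the untreated arrays. Neither the combination nor the CHR-3996 arrays came near the tosedostat arrays, which in turn lay below the untreated arrays. The log2 fold change of AURKB was -2.42 with CHR-3996 (standard error, SE, 0.21, limma adjusted p = 5.1e-06), a level of 0.186 of that in untreated cells, and -1.94 with the combination (SE 0.21). Averaged with its dimmer second probe set, which was not called, AURKB was at -1.39 and -1.16, both called. BIRC5, which encodes survivin, had log2 values of 8.43, 9.50 and 9.75 on the combination arrays, 7.86, 9.09 and 9.21 on the CHR-3996 arrays, 10.16, 10.34 and 10.75 on the tosedostat arrays and 10.79, 10.91 and 11.17 on the untreated arrays. The first CHR-3996 and the first combination array were lowest in their groups, and no treated array reached the untreated range. BIRC5 fell, with log2 fold changes of -2.24 with CHR-3996 (SE 0.39) and -1.73 with the combination (SE 0.39). CDCA8, which encodes borealin, was at -1.67 and -1.20 in the same comparisons, both called. INCENP, the scaffold of the complex, was dim, with log2 values of 4.74, 3.99 and 4.85 with the combination, 3.54, 4.68 and 4.67 with CHR-3996, 4.39, 4.48 and 4.75 with tosedostat and 5.14, 4.12 and 5.03 in untreated cells. Its arrays overlapped in all comparisons with untreated cells, where the second array was low, and its log2 fold changes of -0.24 with the combination and -0.47 with CHR-3996 were not called.

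Of the other mitotic kinases, PLK4, which starts centriole duplication, AURKA, which acts at spindle poles, and PLK1, which acts throughout mitosis, fell, and NEK2 did not. PLK4 had log2 values of 7.39, 7.79 and 8.25 on the combination arrays, 7.21, 7.65 and 7.81 on the CHR-3996 arrays, 8.70, 8.68 and 9.08 on the tosedostat arrays and 9.21, 9.28 and 9.21 on the untreated arrays. All combination and CHR-3996 arrays lay below the tosedostat arrays, and those below the untreated arrays. AURKA had log2 values of 10.83, 11.09 and 11.56 with the combination, 10.21, 10.92 and 11.15 with CHR-3996, 11.64, 11.65 and 12.01 with tosedostat and 12.17, 12.22 and 12.30 in untreated cells. Groups again did not overlap with the untreated arrays, and the third combination array lay closest to the tosedostat arrays. The log2 fold changes with CHR-3996 were -1.67 for PLK4 (limma adjusted p = 8.8e-05) and -1.47 for AURKA (adjusted p = 0.00046), and with the combination -1.42 and -1.07. PLK1 fell, at -1.23 with the combination and -0.84 with CHR-3996, and was the only one of the 50 genes whose mean was lower with the combination than with CHR-3996, by a difference of -0.39 that was not called. NEK2, a kinase that separates centrosomes, had log2 values of 11.16, 11.19 and 11.64 on the combination arrays, 10.47, 11.05 and 11.37 on the CHR-3996 arrays, 10.56, 10.46 and 10.87 on the tosedostat arrays and 11.02, 11.10 and 11.28 on the untreated arrays. Here the tosedostat arrays and the first CHR-3996 array were low, and the combination arrays lay above all of them while overlapping the untreated range. NEK2 was higher with the combination than with tosedostat by 0.70 (95% interval 0.21 to 1.20, adjusted p = 0.026 from limma), a call lost on leaving out the third combination array (0.55), the first tosedostat array (0.67) or the second tosedostat array (0.62), and when array medians were set equal (0.47). Against untreated cells its brightest probe set was not called, at 0.20, and its other probe set was higher with the combination, at 0.78 (adjusted p = 0.0023).

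Of the 5 spindle checkpoint genes, 4 were lower with CHR-3996 and 3 with the combination. MAD2L1, which encodes the checkpoint protein MAD2, had log2 values of 10.88, 11.08 and 11.39 with the combination, 10.40, 10.96 and 11.33 with CHR-3996, 12.04, 12.09 and 12.21 with tosedostat and 12.48, 12.45 and 12.50 in untreated cells. Combination and CHR-3996 arrays interleaved, well under the tosedostat arrays. TTK, the kinase MPS1 that recruits checkpoint proteins, had log2 values of 8.44, 9.27 and 9.45 on the combination arrays, 7.98, 8.72 and 9.05 on the CHR-3996 arrays, 9.58, 9.59 and 9.87 on the tosedostat arrays and 10.07, 10.12 and 10.32 on the untreated arrays. The same order was seen, except that the upper combination arrays came close to the tosedostat arrays. MAD2L1 fell, at -1.58 with CHR-3996 (SE 0.21) and -1.36 with the combination, and so did TTK, at -1.59 (SE 0.29) and -1.11. BUB1B, which encodes the inhibitor BUBR1 of the anaphase promoting complex, was lower in both, at -1.28 and -0.88. BUB1, a checkpoint kinase at the kinetochore, had log2 values of 10.10, 10.73 and 11.06 with the combination, 9.32, 10.26 and 10.56 with CHR-3996, 10.83, 11.05 and 11.18 with tosedostat and 11.15, 11.32 and 11.42 in untreated cells. Both CHR-3996 and combination arrays lay below all untreated arrays, with the first of each well below the others. BUB1 fell by 1.25 with CHR-3996 (adjusted p = 0.0062 from limma), and its log2 fold change of -0.67 with the combination was not called, although it was without the first CHR-3996 array (adjusted p = 0.033). BUB3, the partner of BUB1 and BUBR1, was bright, with log2 values of 12.16, 12.17 and 12.36 on the combination arrays, 11.79, 12.25 and 12.23 on the CHR-3996 arrays, 12.12, 12.47 and 12.41 on the tosedostat arrays and 12.39, 12.58 and 12.49 on the untreated arrays. Groups lay close together, and the CHR-3996 and the combination arrays were all below the untreated ones. Its log2 fold change of -0.40 with CHR-3996 narrowly missed the threshold (adjusted p = 0.051 from limma) and passed it without the second CHR-3996 array (-0.48) or the first tosedostat array, and of its 5 other probe sets 2 were lower.

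Of the 6 genes that act at the start of anaphase, 3 were lower with CHR-3996, and with the combination 2 were lower and 1 was higher. UBE2C, the enzyme that passes ubiquitin to targets of the anaphase promoting complex, had log2 values of 9.71, 10.29 and 10.44 on the combination arrays, 8.87, 9.80 and 9.97 on the CHR-3996 arrays, 11.28, 11.44 and 11.57 on the tosedostat arrays and 11.93, 11.96 and 11.90 on the untreated arrays. The 3 untreated arrays agreed closely, and every treated group lay below them. CDC20, the activator of the complex in early mitosis, had log2 values of 10.51, 11.11 and 11.44 with the combination, 9.81, 10.93 and 10.96 with CHR-3996, 11.21, 11.44 and 11.72 with tosedostat and 11.67, 11.75 and 11.89 in untreated cells. The first CHR-3996 and first combination arrays were low, while the other combination arrays lay within the tosedostat range or just below it. UBE2C fell in both treatments with CHR-3996, at -2.38 alone (limma adjusted p = 2.9e-05) and -1.79 in the combination. CDC20 fell by 1.20 with CHR-3996, and its value of -0.75 with the combination was not called (adjusted p = 0.072), but was without the third combination array (-0.96) or the first CHR-3996 array. ESPL1, which encodes separase, was lower too, at -0.93 with CHR-3996 and -0.66 with the combination.

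PTTG1, which encodes securin, the inhibitor and chaperone of separase, had log2 values of 12.39, 12.46 and 12.61 on the combination arrays, 11.69, 12.15 and 12.25 on the CHR-3996 arrays, 11.28, 11.43 and 11.73 on the tosedostat arrays and 11.67, 11.81 and 11.85 on the untreated arrays. The combination arrays lay above all other arrays, the CHR-3996 arrays ran from within the untreated range to above it, and the tosedostat arrays lay within or below it. PTTG1 was higher with the combination than in untreated cells by 0.71 (95% interval 0.35 to 1.08, adjusted p = 0.0044 from limma) and higher than with tosedostat by 1.01 (adjusted p = 0.00053). Both calls were made after quantile normalization and with equal array medians, where the first was 0.46. With CHR-3996 alone its value was 0.26, not called, and 0.43 without the first CHR-3996 array, when it was called (adjusted p = 0.041). Its single probe set has the suffix _x_at, which marks probes that can match other transcripts. SGO1, a shugoshin that shields cohesin at the centromere, had log2 values of 6.91, 7.53 and 7.86 with the combination, 6.37, 7.08 and 7.22 with CHR-3996, 7.09, 7.11 and 7.32 with tosedostat and 6.95, 7.0 and 7.08 in untreated cells. The first array of the combination and of CHR-3996 was lowest in its group, and the upper combination arrays lay above every other array. Its log2 fold changes of 0.42 with the combination and -0.12 with CHR-3996 were not called, the combination value became -0.03 after quantile normalization, and without the first combination array it was 0.68 and called (adjusted p = 0.037). SGO2, the second shugoshin, had log2 values of 9.81, 10.24 and 10.52 on the combination arrays, 9.38, 10.01 and 10.20 on the CHR-3996 arrays, 9.52, 9.73 and 9.85 on the tosedostat arrays and 10.01, 10.31 and 10.23 on the untreated arrays. The combination and CHR-3996 arrays overlapped the untreated ones, and the tosedostat arrays all lay below them. By this probe set SGO2 was not called, at 0.00 with the combination and -0.32 with CHR-3996, and its other probe set was lower, at -0.74 and -0.89 (adjusted p = 0.0079 and 0.0026 from limma).

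**Figure D3:**
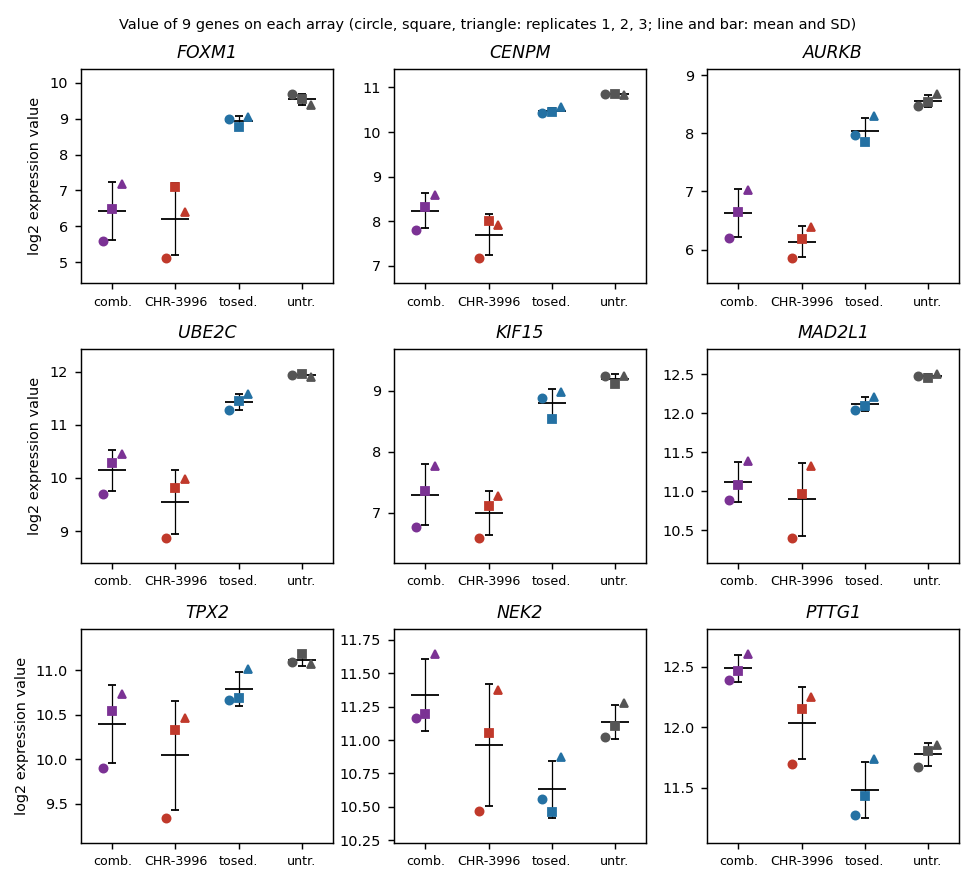
Log2 expression value (vertical axis, a separate scale in each panel) of 9 of the genes on each of the 12 arrays, for the combination, CHR-3996, tosedostat and untreated cells, with circles, squares and triangles for replicates 1, 2 and 3 and a line and bar for mean and SD. The first replicate is lowest among the CHR-3996 arrays in all panels, for example 5.11 for FOXM1, and the combination arrays of PTTG1 lie above all others.

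Centromere and kinetochore genes held several of the largest falls, and 10 of the 11 were lower with CHR-3996. CENPM, of the network that stays on the centromere through the cell cycle, had log2 values of 7.81, 8.31 and 8.59 on the combination arrays, 7.17, 8.0 and 7.92 on the CHR-3996 arrays, 10.44, 10.45 and 10.55 on the tosedostat arrays and 10.85, 10.84 and 10.84 on the untreated arrays. The untreated arrays were almost equal, the tosedostat arrays lay just below, and the combination and CHR-3996 arrays lay far below both. CENPM had a log2 fold change of -3.15 with CHR-3996 (SE 0.23, limma adjusted p = 1.5e-06), a level of 0.113 of that in untreated cells, and of -2.61 with the combination. SPC25, a subunit of the NDC80 complex that grips microtubules, had log2 values of 7.13, 8.27 and 8.55 with the combination, 6.81, 7.70 and 7.78 with CHR-3996, 9.52, 9.60 and 9.88 with tosedostat and 10.24, 10.08 and 10.12 in untreated cells. No group overlapped the untreated arrays, and the combination arrays spread more widely than those of either compound alone. Its log2 fold changes were -2.16 with the combination and -2.72 with CHR-3996 (SE 0.34). The other subunits of the NDC80 complex fell too, with values for CHR-3996 of -2.68 for SPC24, -1.91 for NUF2 and -1.33 for NDC80. For the combination they were at -2.29, -1.66 and -0.94. Averaged with a probe set too dim to be tested, SPC24 was at -1.44 with CHR-3996 and -1.27 with the combination, both called. Among the remaining genes of the centromere network, CENPN was at -1.93, CENPH at -1.46 and CENPK at -1.12 with CHR-3996, all called, and CENPA, the histone H3 variant that marks the centromere, fell by 0.81 (limma adjusted p = 0.0066).

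Of the large coiled-coil proteins of the outer kinetochore, CENPE was lower with CHR-3996 and CENPF was not called. CENPE, a motor that carries chromosomes to the spindle equator, had log2 values of 7.72, 8.51 and 8.75 on the combination arrays, 7.43, 8.31 and 8.32 on the CHR-3996 arrays, 8.34, 8.35 and 8.39 on the tosedostat arrays and 8.79, 9.16 and 8.81 on the untreated arrays. Only the third combination array came near the untreated range, and no treated array reached it. CENPE fell by 0.90 with CHR-3996 (adjusted p = 0.023 from limma), a call lost without the first CHR-3996 array (-0.61) or the second untreated array (-0.78), and its value of -0.59 with the combination was not called. CENPF, which binds kinetochores and the nuclear envelope, had log2 values of 9.71, 10.15 and 10.35 with the combination, 9.38, 10.15 and 10.31 with CHR-3996, 9.77, 9.79 and 9.95 with tosedostat and 10.42, 10.42 and 10.47 in untreated cells. All treated arrays lay below the untreated ones, the tosedostat arrays within a narrow range. Its log2 fold changes of -0.36 with the combination, -0.49 with CHR-3996 and -0.60 with tosedostat were not called, though the CHR-3996 value was without the third CHR-3996 array (-0.67, adjusted p = 0.043), and the other 2 probe sets were not called either.

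All 7 genes listed here as kinesins, motors that slide, bundle or shorten microtubules, were lower with CHR-3996 and with the combination. The motor CENPE, grouped with the kinetochore genes, was not called with the combination. KIF15, which helps keep spindle poles apart, had log2 values of 6.77, 7.36 and 7.76 on the combination arrays, 6.58, 7.11 and 7.27 on the CHR-3996 arrays, 8.87, 8.54 and 8.98 on the tosedostat arrays and 9.25, 9.11 and 9.24 on the untreated arrays. The groups formed 3 levels, with the combination and CHR-3996 arrays lowest and overlapping. KIF23, a motor of the centralspindlin complex at the midzone, had log2 values of 8.10, 8.59 and 8.84 with the combination, 7.68, 8.35 and 8.50 with CHR-3996, 9.40, 9.23 and 9.63 with tosedostat and 10.20, 10.15 and 10.25 in untreated cells. Its tosedostat arrays were all clearly below the untreated arrays. KIF15 was at -2.21 with CHR-3996 (limma adjusted p = 2.8e-05) and -1.90 with the combination. KIF23 was at -2.02 (adjusted p = 3.2e-05) and -1.69, and had a value of -0.78 with tosedostat, called (adjusted p = 0.047) when the first CHR-3996 array was left out. The other probe set of KIF23 was dimmer, and gave -0.39 with CHR-3996 and -0.41 with the combination, both called (adjusted p = 0.029 and 0.022), and -0.06 with tosedostat, not called. KIF2C, which takes microtubules apart at kinetochores, was at -1.94 with CHR-3996 and -1.40 with the combination, with -0.10 for tosedostat. KIF20A, which brings passenger proteins to the midzone, was at -1.93 and -1.83. KIF18A, which limits chromosome movement, KIF14, of the midbody, and KIF11, the motor that separates the poles, were at -1.31, -1.09 and -0.91 with CHR-3996 and at -0.74, -0.90 and -0.70 with the combination.

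Of the 4 spindle assembly genes, 3 were lower with CHR-3996, and only ASPM was lower with the combination. TPX2, which nucleates microtubules and activates Aurora A, had log2 values of 9.91, 10.55 and 10.73 on the combination arrays, 9.34, 10.33 and 10.46 on the CHR-3996 arrays, 10.66, 10.69 and 11.01 on the tosedostat arrays and 11.09, 11.18 and 11.07 on the untreated arrays. Apart from the first CHR-3996 and first combination arrays, the treated arrays lay in 1 band under the untreated ones. TPX2 fell by 1.07 with CHR-3996 (adjusted p = 0.010 from limma), and its value of -0.72 with the combination was not called (adjusted p = 0.062), but was without the first CHR-3996 array or without the third combination array. ASPM, which acts at spindle poles, had log2 values of 8.95, 9.56 and 9.86 with the combination, 8.60, 9.50 and 9.59 with CHR-3996, 9.49, 9.40 and 9.67 with tosedostat and 10.32, 10.26 and 10.39 in untreated cells. Here the tosedostat arrays were as low as most of the CHR-3996 arrays. ASPM fell, at -1.10 with CHR-3996 and -0.87 with the combination, where the call was lost without the first combination array (-0.62), the first untreated array (-0.87) or the third untreated array (-0.84), and its value with tosedostat was -0.81 (adjusted p = 0.15). NUSAP1, which bundles spindle microtubules, had log2 values of 11.50, 11.57 and 11.97 on the combination arrays, 10.98, 11.41 and 11.76 on the CHR-3996 arrays, 11.47, 11.44 and 11.71 on the tosedostat arrays and 11.89, 11.98 and 12 on the untreated arrays. Groups lay close together, and the third combination array reached the untreated range. NUSAP1 fell by 0.57 with CHR-3996 (adjusted p = 0.031), to a value of -0.37 without the first CHR-3996 array, and the call was lost on leaving out any 1 of the arrays of untreated cells or the first or second CHR-3996 array. HMMR, a microtubule binding protein of the poles, had log2 values of 11.65, 11.95 and 12.31 with the combination, 10.92, 11.94 and 11.98 with CHR-3996, 11.75, 11.88 and 12.20 with tosedostat and 12.06, 12.20 and 12.29 in untreated cells. Only the first CHR-3996 array stood far from the rest. Its log2 fold changes of -0.21 with the combination and -0.57 with CHR-3996 were not called.

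In cytokinesis, all 4 genes fell with CHR-3996 and 3 of them with the combination. ANLN, which encodes anillin, a scaffold of the contractile ring, had log2 values of 9.07, 9.67 and 9.79 on the combination arrays, 8.58, 9.17 and 9.44 on the CHR-3996 arrays, 9.81, 9.78 and 10.09 on the tosedostat arrays and 10.65, 10.60 and 10.53 on the untreated arrays. Every treated group lay below the untreated arrays. PRC1, which crosslinks microtubules of the central spindle, had log2 values of 9.96, 10.43 and 10.75 with the combination, 9.56, 10.29 and 10.40 with CHR-3996, 10.62, 10.66 and 10.86 with tosedostat and 11.24, 11.18 and 11.11 in untreated cells. The third combination array lay among the tosedostat arrays, and no treated array reached the untreated range. ANLN was at -1.53 with CHR-3996 (limma adjusted p = 0.00025) and -1.08 with the combination. PRC1 was at -1.09 (adjusted p = 0.0027) and -0.80, the second call lost without the first combination array (-0.58). RACGAP1, the partner of KIF23 in centralspindlin, was at -0.76 and -0.52, both called, where leaving out any 1 of the untreated arrays or the first or second combination array ended the second call. ECT2, which switches on RhoA at the division site, had log2 values of 9.49, 9.77 and 10.08 on the combination arrays, 9.09, 9.50 and 9.71 on the CHR-3996 arrays, 9.62, 9.57 and 10.02 on the tosedostat arrays and 10.18, 10.21 and 10.43 on the untreated arrays. The treated groups overlapped one another and not the untreated arrays. ECT2 fell by 0.84 with CHR-3996 (adjusted p = 0.0050 from limma), and its values of -0.50 with the combination (adjusted p = 0.064) and -0.54 with tosedostat were not called, the first of these being called without the third combination array (-0.64) or the first CHR-3996 array.

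Of the genes of mitotic entry, FOXM1, a transcription factor that drives many G2 and M phase genes, had the largest fall of all 50. FOXM1 had log2 values of 5.60, 6.49 and 7.19 on the combination arrays, 5.11, 7.10 and 6.39 on the CHR-3996 arrays, 9.0, 8.77 and 9.04 on the tosedostat arrays and 9.68, 9.54 and 9.39 on the untreated arrays. The CHR-3996 arrays spread widely, the first being lowest, and all CHR-3996 and combination arrays lay far below the tosedostat arrays. The log2 fold change of FOXM1 was -3.34 with CHR-3996 (SE 0.47, limma adjusted p = 0.00014), a level of 0.0987 of that in untreated cells, and -3.11 with the combination (SE 0.47). Like that of PTTG1, the single probe set of FOXM1 has the suffix _x_at, as have the single probe sets of CENPA and CENPH. CDK1, the kinase that triggers mitosis, had log2 values of 10.38, 10.86 and 11.37 with the combination, 9.82, 10.60 and 10.82 with CHR-3996, 11.35, 11.36 and 11.68 with tosedostat and 12.03, 11.88 and 11.98 in untreated cells. The third combination array overlapped the tosedostat arrays, and none overlapped the untreated arrays. CDK1 fell, at -1.55 with CHR-3996 (limma adjusted p = 0.00078) and -1.09 with the combination. TOP2A, the topoisomerase that untangles sister chromatids, was at -1.50 with CHR-3996 and was called lower in both comparisons, as was CDC25B, a phosphatase that activates CDK1, at -1.13 and -0.67. CDC25C, a second such phosphatase, had log2 values of 7.92, 8.44 and 8.89 on the combination arrays, 7.66, 8.29 and 8.41 on the CHR-3996 arrays, 8.33, 8.41 and 8.98 on the tosedostat arrays and 8.70, 8.77 and 9.02 on the untreated arrays. The CHR-3996 arrays lay below the untreated arrays, and the third arrays of the combination and of tosedostat were within their range. Its value of -0.71 with CHR-3996 missed the threshold (adjusted p = 0.056 from limma) and passed it when any of 4 single arrays was left out, replicate 1 or 3 of the combination, replicate 3 of tosedostat or replicate 3 of CHR-3996, while its other tested probe set was lower, at -0.70 (adjusted p = 0.037).

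The effect of adding CHR-3996 was then compared on its own and on top of tosedostat. With the combination, 18 genes were lower and 2 were higher (PTTG1 and NEK2) than with tosedostat, against 13.7% and 28.4% of all probe sets (42.1% in either direction). The 50 genes had a median log2 fold change of -0.48. The log2 fold changes of FOXM1, CENPM, SPC24 and SPC25 were -2.51, -2.24, -1.70 and -1.68 in this comparison. In 23 genes the combination arrays all lay below the tosedostat arrays, against 18.9% of all probe sets. Leaving out the first combination array gave 13 lower and 3 higher. BIRC5, BUB1B, CDCA8, CENPH and NUF2 were then not called, nor were they without the third tosedostat array. Same-numbered arrays of the combination and tosedostat deviated together at correlations of 0.19 to 0.23. With the replicate block 24 genes were lower and 3 higher, against 15.3% and 30.9% of all probe sets. The log2 fold changes of the 50 genes on top of tosedostat and against untreated cells, which share no array, had a Pearson r of 0.965 and a Spearman rho of 0.95, and over all probe sets r was 0.891. The plot of change with and without tosedostat shows the ranking of genes and the smaller falls on top of tosedostat.

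**Figure D4:**
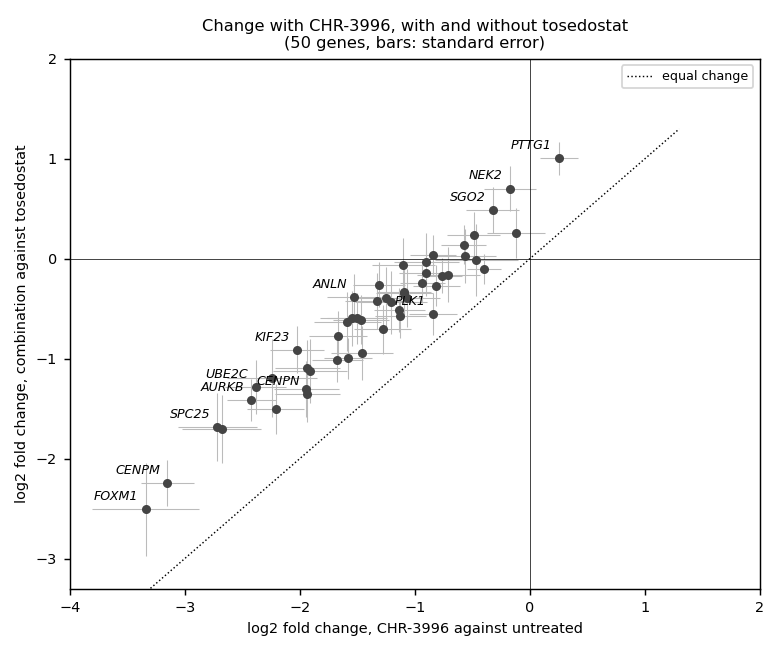
Log2 fold change of the 50 genes with CHR-3996 on top of tosedostat (combination against tosedostat, vertical axis) and without it (CHR-3996 against untreated, horizontal axis), with bars for the standard error from limma and a dotted line for equal change. All 50 points lie above the line, with FOXM1 at -3.34 and -2.51 and PTTG1 at 0.26 and 1.01.

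For all 50 genes the value with both compounds was above the sum of the 2 single changes, with a median interaction of 0.77 on the log2 scale and a range of 0.29 to 1.15, and none was called (smallest adjusted p = 0.233 from limma). The median over all probe sets was 0.01, with 51.8% above 0, and 0.184% were called lower and 0.022% higher (0.206% in either direction). By unadjusted p 23 of the 50 passed 0.05, against 3712 of the 36395 probe sets tested, in either direction. ANLN had the largest interaction, at 1.15 (95% interval 0.42 to 1.87), followed by KIF23 at 1.11 (0.39 to 1.84), whose other probe set had 0.04, and UBE2C at 1.10 (0.26 to 1.94). The 50 values all rest on the same 12 arrays and are not independent of one another. With tosedostat alone, the means of 49 of the 50 genes lay below those of untreated cells, and none was called. With CHR-3996 present, 49 of 50 were instead higher when tosedostat was added, with a median of 0.35, as were 60.5% of all probe sets. None of the 50 was called in either direction, against 0.011% called lower and 0.0522% higher of all probe sets (0.0632% in either direction). By unadjusted p 5 of the 50 passed 0.05 in that comparison, against 3857 of the 36395 probe sets tested, in either direction. The arrays of that comparison overlapped for 49 genes. PTTG1 was the exception with all combination arrays higher, or 1 of 50 against 10.7% of all probe sets. No gene had all combination arrays below the CHR-3996 arrays, against 4.09% of all probe sets. Without the first CHR-3996 array the median was 0.08.

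The first array of CHR-3996 and that of the combination stood apart over nearly all these genes. The median difference of the 50 genes from their untreated means was -1.35, -0.90 and -0.58 on the combination arrays, -1.94, -1.07 and -0.94 on the CHR-3996 arrays, -0.55, -0.55 and -0.26 on the tosedostat arrays and -0.03, -0.01 and 0.04 on the untreated arrays. On the first CHR-3996 array 49 of the 50 genes lay below the mean of their group, as did 49 on the first combination array. On the third array of the combination all 50 lay above it, and on the third tosedostat array 49 did. Genes thus moved together between replicates, as the plot of all genes by array shows, so their number does not add replicates. With the first replicate of all 4 groups left out, a choice made after the data were seen, 38 genes were lower with CHR-3996 (median -1.01) and 31 with the combination (median -0.72), and the median interaction was 0.66. The shares of all probe sets called in that fit were not computed. Without the first CHR-3996 array alone, 39 genes were lower, 1 was higher and the median was -0.94.

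**Figure D5:**
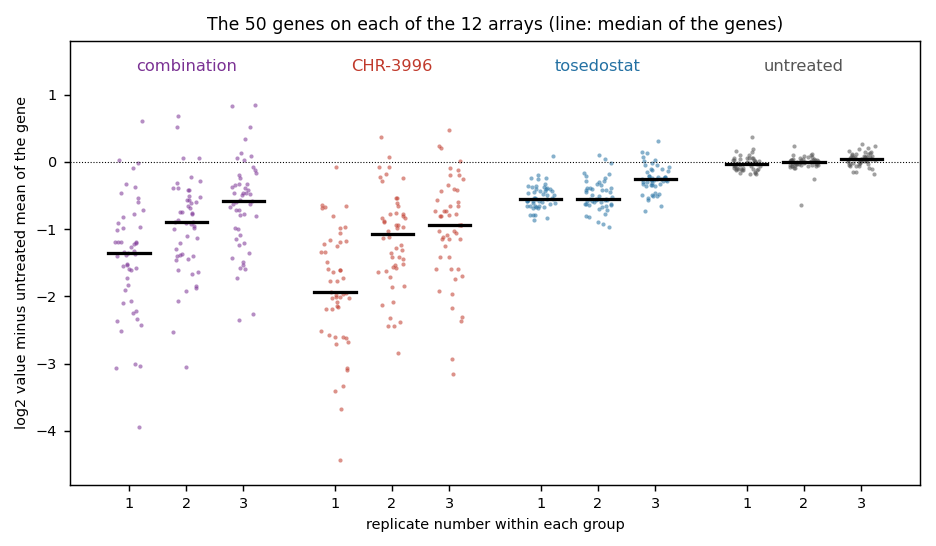
Difference of the log2 value from the untreated mean of the gene (vertical axis) for the 50 genes on each of the 12 arrays (horizontal axis, replicates 1 to 3 of the combination, CHR-3996, tosedostat and untreated cells), with 1 point per gene and a line at the median. The medians run from -1.94 on the first CHR-3996 array to 0.04 on the third untreated array.

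Other probe sets mostly moved with the brightest, though not always by as much. The 50 genes have 96 probe sets, 25 genes have more than 1, and of 40 other probe sets that passed the filter 29 were lower with CHR-3996 and none was higher. Of 17 genes called lower that have another tested probe set, 14 had all of them lower. Besides AURKB, SPC24 and KIF23, the value with CHR-3996 moved by over 1.5-fold for CENPN, to -1.28 when its probe sets were averaged, and for ASPM, to -1.75 by its brightest probe set without an _s or _x suffix. That of FOXM1 became -2.72 with the first replicate of all groups left out. With the combination 25 of the 40 were lower and 1, of NEK2, was higher. No gene was called in opposite directions by its probe sets in any comparison between groups.

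The rest of the machinery was taken from 7 lists of other mitotic genes, 112 in all, of which 105 had a tested probe set. Of these 105, 70 were lower and 9 were higher with CHR-3996, and 61 were lower and 10 higher with the combination, with medians of -0.82 and -0.55. The shares over all probe sets were 15.7% lower and 29.4% higher with CHR-3996, and 14.1% and 32% with the combination. With tosedostat few of the 105 were called, as over all probe sets (0.451% lower and 3.23% higher): 1 was lower, SKA2 of the kinetochore (-0.52), and 2 were higher, CHMP4B of the abscission machinery (0.54) and LIN37 of the MuvB complex (0.84). Among other kinetochore and checkpoint genes 20 of 25 were lower and 1 was higher with CHR-3996, led by PMF1 (-2.57) of the MIS12 complex and CENPO (-2.33) of the centromere network. Of cohesin and condensin genes 12 of 18 were lower and none higher, with NCAPH (-2.87), a condensin subunit, and CDCA5 (-2.73), which encodes the cohesin protector sororin, in front. Subunits and regulators of the anaphase promoting complex were lower in 9 of 16 cases and higher in 1, with a median of -0.43, FBXO5 (-2.37), which encodes its inhibitor EMI1, being the exception, and ANAPC7 at -0.98. KIF18B (-3.10), a microtubule depolymerase, and HAUS7 (-2.80), of the augmin complex, led the 13 of 22 other spindle and motor genes that were lower, and 3 were higher. MYBL2 (-3.39), the B-MYB factor that joins MuvB, and the kinase PBK (-2.20) led 9 of 12 genes of mitotic entry that were lower, and 1 was higher. Centriole duplication had 4 of 5 lower and 1 higher, with STIL at -1.22 and SASS6 at -1.13. Other cytokinesis genes were mixed, with 3 of 7 lower, among them CEP55 (-1.33) and DIAPH3 (-1.03), and 2 higher, MYH10 (0.93) and MYH9 (0.62), which encode nonmuscle myosin heavy chains.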

How the data were processed

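RNA was extracted from H929 cells by the authors, amplified with a 2-cycle biotin labelling kit, hybridized to Affymetrix U133 Plus 2.0 arrays (12 arrays, 3 per group) and normalized in dChip, whose version and settings are not named in the sources used here. The deposited table holds log2 expression values for 54675 probe sets. No further scaling was applied, so scaling between arrays could shift all fold changes.

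Control probe sets (62) were removed, and of the remaining 54613 a probe set was tested if 3 or more arrays had it above their 40th percentile, which left 36395. limma 3.58.1 in R 4.3.3 was fitted with 1 term per group, 8 residual degrees of freedom and 6 contrasts, and p-values were adjusted by Benjamini-Hochberg over all tested probe sets in each contrast, with a call at an adjusted p under 0.05. The fit was run on simulated data with known changes and independent noise for each probe set. Joint movement of genes between replicates was not simulated, so that run does not bear on it. Probe sets were given symbols by the platform annotation and RefSeq, and the brightest one assigned to a gene alone represented it. The genes and lists were chosen with earlier results of these data known. Values on every array are given for the 2 largest changes with CHR-3996 in each of 9 roles and for genes not lower with CHR-3996 or the combination. Of other mitotic genes, the 2 largest called changes of each list are named, and further ones were chosen after their values were seen.

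Groups carry the same replicate numbers in the labels, which do not say what a number marks. Same-numbered arrays deviated together (r over 0.1 in all 3 pairs) for the combination with CHR-3996, for tosedostat with each of the other 3 groups, and not in all pairs for CHR-3996 or the combination with untreated cells. Alternatives were other scaling, filters, variance models, samples and probe sets for a gene, the replicate number as a block, leaving out each array, and the size criteria of the study (at least 2-fold and a linear difference over 100). A block on the compared arrays alone and leaving out all first replicates were added after the data were seen. The number of arrays limits the precision. Plots were made in matplotlib 3.10.9 (Python 3.11.15).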

Additional observations from a re-analysis of the deposited data

How the results depend on the processing

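The median log2 fold change over the 50 genes kept its direction in every alternative, from -1.45 to -0.94 with CHR-3996 when single arrays were left out, from -1.13 to -0.72 with the combination and from -0.54 to -0.40 with tosedostat against untreated cells. For the combination it ran from 0.08 to 0.57 against CHR-3996 and from -0.65 to -0.26 against tosedostat, and for the interaction from 0.49 to 0.97. Leaving out single arrays gave 39 to 43 genes lower and 0 to 1 higher with CHR-3996, 25 to 39 lower and 1 to 2 higher with the combination, 0 to 1 lower with tosedostat, and 13 to 22 lower and 1 to 3 higher for the combination against tosedostat.

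Genes lower with tosedostat numbered 0 in the fit used, 2 with the replicate block, 2 with a variance trend and robust estimation, 3 when only the compared arrays were fitted and 2 when the probe sets of a gene were averaged. Of all probe sets, 1.02% were lower with the block and 0.247% when only the compared arrays were fitted. Such shares were not computed for alternatives other than these and the block on the compared arrays. Genes higher with the combination numbered 1 in the fit used, 2 with averaged probe sets and 2 without the first replicates. With the size criteria of the study and an unadjusted p, 22 genes were lower and 0 higher with the combination, and 0 were higher than with tosedostat. Against tosedostat 1 gene was higher with equal array medians and 1 with no filter. The replicate block gave 45 genes lower with CHR-3996 and 41 lower and 1 higher with the combination, and called none in the interaction. What a shared replicate number marks is not stated. Over all probe sets the block called 17.3% lower and 31.4% higher with CHR-3996, and 15.8% and 34.1% with the combination. It left none called for the combination against CHR-3996. The causes of these differences were not tested.

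Single genes changed direction only where no call was made. With CHR-3996, NEK2 became 0.013 with averaged probe sets and 0.021 without the first replicates, and ran from -0.38 to 0.076 when single arrays were left out. SGO1 ran from -0.29 to 0.14 and was 0.11 without the first replicates, where INCENP was 0.099. With tosedostat, BUB3 became 0.15 by its brightest probe set without an _s or _x suffix, and INCENP 0.037 without the first replicates. With the combination, SGO1 became -0.031 and SGO2 -0.18 after quantile normalization, NEK2 became -0.048 and SGO2 -0.24 with equal array medians, SGO2 became -0.37 with averaged probe sets and ran from -0.16 to 0.19 when single arrays were left out, INCENP ran from -0.56 to 0.029, and CENPF became 0.025 by its brightest probe set without such a suffix.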
